A study of Homo sapiens with 12 samples.

Results

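The clustered histone genes were followed in 2 human small cell lung cancer lines grown with and without the LSD1 inhibitor ORY-1001. Members were the gene symbols that begin with HIST1H, HIST2H, HIST3H or HIST4H and do not end in P and a digit, which gave 89 of the 56508 symbols in the deposited table. By the histone they are named for, 8 are H1 genes, 23 H2A, 26 H2B, 16 H3 and 16 H4. A member was tested when its level was at least 1 in at least 3 of the 12 libraries, and 42 of the 89 passed, among 15456 genes tested in all. The tested members were 2 H1, 12 H2A, 13 H2B, 8 H3 and 7 H4 genes.

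The study compared cultures of each line with and without inhibition of LSD1, an enzyme encoded by KDM1A that removes methyl groups from histone H3. The groups were H211 with ORY-1001, H211 control, H82 with ORY-1001 and H82 control, with 3 libraries each. ORY-1001 was given at 1 µM, and the controls received vehicle, which the sample labels name as PBS. Treatment lasted 7 days by the sample labels but 10 days by the protocol, and which of these applied was not settled. Both lines are established small cell lung cancer lines of wild-type genotype by the labels, grown in serum-containing RPMI medium, and each stands for 1 cancer only. The labels do not say that the 3 libraries of a group came from separate cultures, so that a p-value here sets a difference against the scatter among 3 libraries, which may be technical.

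Nucleosomes wrap DNA around the core histones H2A, H2B, H3 and H4, and linker histone H1 binds the DNA that enters and leaves them. Most clustered histone genes lack introns and are transcribed in S phase, when new DNA has to be packed. Their classical mRNAs end in a conserved stem-loop that is bound by SLBP and cut with the help of the U7 snRNP, and so carry no poly(A) tail. Some of these genes also make longer, polyadenylated mRNAs by reading past the stem-loop, which is known from cells that leave the cell cycle or differentiate. The libraries were made from RNA enriched on oligo(dT) beads, so the levels below come from polyadenylated forms and from whatever RNA without a tail the beads carried along, and these cannot be told apart here.

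The stem-loop is the sequence that sets these mRNAs apart, and it was found in the annotated transcripts (GENCODE 29, GRCh38) of 24 of the 42 tested members. The motif searched was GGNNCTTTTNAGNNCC on the transcript strand. It was present in 22 of the 26 tested members with an annotated 3′ UTR, in 34 of all 89 members, and in 29 of 19831 other protein-coding genes, which is 0.146%. The other 16 tested members have no annotated 3′ UTR. Of these, the pseudogenes HIST2H2BC and HIST2H2BD hold the motif in their transcripts, and where an annotated transcript ends with the coding part the stem-loop lies outside the letters searched. In 17 tested members a transcript runs at least 100 bases past the stem-loop, and 15 of these hold the poly(A) signal AATAAA or ATTAAA in the last 50 bases. The sites of 8 members that the results turn on are shown with 5 bases on each side, with the stem-loop in capitals, as DNA on the gene's strand.
HIST3H2A: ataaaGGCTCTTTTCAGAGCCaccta
HIST2H2AA3: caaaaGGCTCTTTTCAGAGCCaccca
HIST1H2AC: ccaaaGGCTCTTTTCAGAGCCcccct
HIST1H2BD: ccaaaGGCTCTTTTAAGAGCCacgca
HIST2H2BE: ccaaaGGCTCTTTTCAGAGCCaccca
HIST1H3H: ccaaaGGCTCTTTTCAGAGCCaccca
HIST1H4J: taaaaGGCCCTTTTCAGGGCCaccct
HIST2H4A: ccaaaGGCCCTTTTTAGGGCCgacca

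These sites lie at chr1:228457364-228457389 on the minus strand for HIST3H2A, chr1:149842218-149842243 minus for HIST2H2AA3, chr6:26124664-26124689 plus for HIST1H2AC and chr6:26158582-26158607 plus for HIST1H2BD. HIST2H2BE has its site at chr1:149886183-149886208 minus, HIST1H3H at chr6:27810511-27810536 plus, HIST1H4J at chr6:27824454-27824479 plus and HIST2H4A at chr1:149833027-149833052 plus. All 8 are exonic and lie in the annotated 3′ UTR. Past the site, the annotated transcript that reaches furthest goes on for 390 bases in HIST3H2A, 1128 in HIST1H2AC and 1729 in HIST2H2BE. In HIST1H3H it goes on for 769 and in HIST2H4A for 1167. It ends 35 bases past the site in HIST2H2AA3, 39 in HIST1H2BD and 6 in HIST1H4J.

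Promoters were matched in RefSeq (GRCh38.p14) for 36 of the tested members, as 250 bases before and 50 after the start. The CCAAT box, searched as CCAAT on both strands, was in 30 of the 36, which is 83.3%, against 34.6% of the 35116 promoters in the table. It was in each of the 2 H1, 10 H2A, 11 H2B and 7 H3 promoters and in 0 of the 6 H4 promoters. The TATA box TATAAA was in 27 of the 36, or 75.0%, against 11.5% of all promoters. The octamer ATTTGCAT, the site known for OCT1 at H2B genes, was in 15 of the 36, or 41.7%, against 1.77%, and 8 of these 15 were H2B genes. The H1 box AAACACA was in both H1 promoters and in 4 of the 36 in all, or 11.1%, against 5.64%. Such matches describe letters in a window and not bound sites. The promoters of HIST3H2A and of the back-to-back pair HIST2H2BE and HIST2H2AC are shown, since HIST3H2A had the largest fold between the control lines among the 5 members with the highest mean over the 12 libraries, and since each of the pair passed the drug test in a different line. Capitals mark these motifs as read on either strand.
HIST3H2A: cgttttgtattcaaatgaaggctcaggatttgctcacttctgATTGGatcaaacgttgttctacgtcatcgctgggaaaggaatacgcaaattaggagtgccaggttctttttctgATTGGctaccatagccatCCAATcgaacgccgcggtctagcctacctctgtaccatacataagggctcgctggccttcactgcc
HIST2H2BE: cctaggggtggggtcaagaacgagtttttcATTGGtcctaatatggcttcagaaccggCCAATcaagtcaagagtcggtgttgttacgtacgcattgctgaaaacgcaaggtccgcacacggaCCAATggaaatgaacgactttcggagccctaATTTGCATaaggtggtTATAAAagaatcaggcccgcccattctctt
HIST2H2AC: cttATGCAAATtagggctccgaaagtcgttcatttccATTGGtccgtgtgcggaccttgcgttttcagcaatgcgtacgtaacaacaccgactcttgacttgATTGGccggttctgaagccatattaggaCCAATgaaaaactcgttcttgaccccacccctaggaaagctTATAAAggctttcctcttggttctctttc

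These stretches are the 200 bases before the RefSeq start. They span chr1:228457874-228458073 on the minus strand for HIST3H2A (H2AC25 in RefSeq), chr1:149886683-149886882 minus for HIST2H2BE (H2BC21) and chr1:149886718-149886917 plus for HIST2H2AC (H2AC20). The last 2 windows lie between the same genes, are read from opposite strands and overlap over most of their length.

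Levels are the deposited TPM, a share of all transcripts corrected for their length, which appears to have been rescaled between libraries, with library totals of 967415 to 1111988. Genes can therefore be compared, but the depth behind a value is unknown and counting error cannot be stated. Across genes, which are not independent replicates, r was 0.9881 to 0.9912 between libraries of the same group. Line markers fitted their labels: POU2F3, ASCL2 and BMX summed to 541.6 to 687.6 in H211 libraries and 3.242 to 5.44 in H82 libraries, and NEUROD1 and INSM1 to 7.874 to 11.12 in H211 and 140.3 to 163.8 in H82. Transcripts of blood cells stood apart in 4 libraries, H211 ORY-1001 replicate 3, H211 control replicates 1 and 2 and H82 ORY-1001 replicate 3, by earlier results of these data. In H211 ORY-1001 replicate 3 it was not the sum that stood apart: HBG2, a globin, was at 0.0 there and at 22.35 and 16.84 in replicates 1 and 2, while LYZ, of myeloid cells, was at 16.05 there and at 0.2707 and 0.356 in the others. H82 ORY-1001 replicates 1 and 2, which are not among the 4, had LYZ at 15.98 and 18.69. The summed level of 15 blood markers was 35.7 to 46.05 in H211 with ORY-1001, 42.39 to 267.0 in H211 controls, 35.9 to 142.2 in H82 with ORY-1001 and 41.12 to 55.64 in H82 controls. HBB was at 0 in every library of the other 3 groups than the H211 controls, and ELANE at 0 in the controls of both lines. Of the 10 blood markers tested, 0 were called in H211 and 2 were higher in H82 with ORY-1001. In bulk RNA, fewer cells of a kind and less RNA per cell cannot be told apart.

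Of the 47 members that did not pass, 13 were at 0 in every library and 34 were above 0 in at least 1, with a highest single value of 1.9. The members nearest to the threshold inside it were HIST1H4E, HIST2H3C and HIST1H2AH, with third-highest values of 1.036, 1.045 and 1.049. Just outside were HIST1H4D, HIST2H2BF and HIST1H4A at 0.9059, 0.8044 and 0.7625. The threshold itself fell unevenly on the lines: 27 members reached it in at least 3 libraries of each line, 13 through H211 only, 0 through H82 only and 2 only with both lines together. For the 13 the filter favoured a difference between the lines, and comparisons of the lines are therefore counted over the 27. Among the tested members, 3 are annotated pseudogenes, namely HIST1H2APS4, HIST2H2BC and HIST2H2BD.

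All 89 members together made up a small share of the mRNA, and that share was larger in H211 than in H82. Their summed level was 634.9, 605.7 and 621.5 in H211 with ORY-1001, 510.6, 497.0 and 549.6 in H211 controls, 205.8, 184.1 and 189.9 in H82 with ORY-1001, and 180.7, 190.5 and 192.2 in H82 controls. Every H211 library lay above every H82 library, the 3 treated H211 libraries all lay above the 3 H211 controls, and the treated and control libraries of H82 overlapped. As a share of the library total this was 0.0583 to 0.0629% in H211 with ORY-1001, 0.0503 to 0.0555% in H211 controls, 0.0174 to 0.0186% in H82 with ORY-1001 and 0.0166 to 0.018% in H82 controls. A few genes carried most of it, and not all of them were the same in both lines. By mean level, the 5 highest members in H211 were HIST3H2A, HIST1H4J, HIST1H2BK, HIST1H1C and HIST2H2AA3, with 63.0% of the summed level. In H82 they were HIST1H4J, HIST1H1C, HIST2H2AC, HIST2H2AA4 and HIST3H2A, with 53.7%. HIST2H2AA3 and HIST2H2AA4 are near-identical copies, so which of them leads in a line is uncertain.

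**Figure D1:**
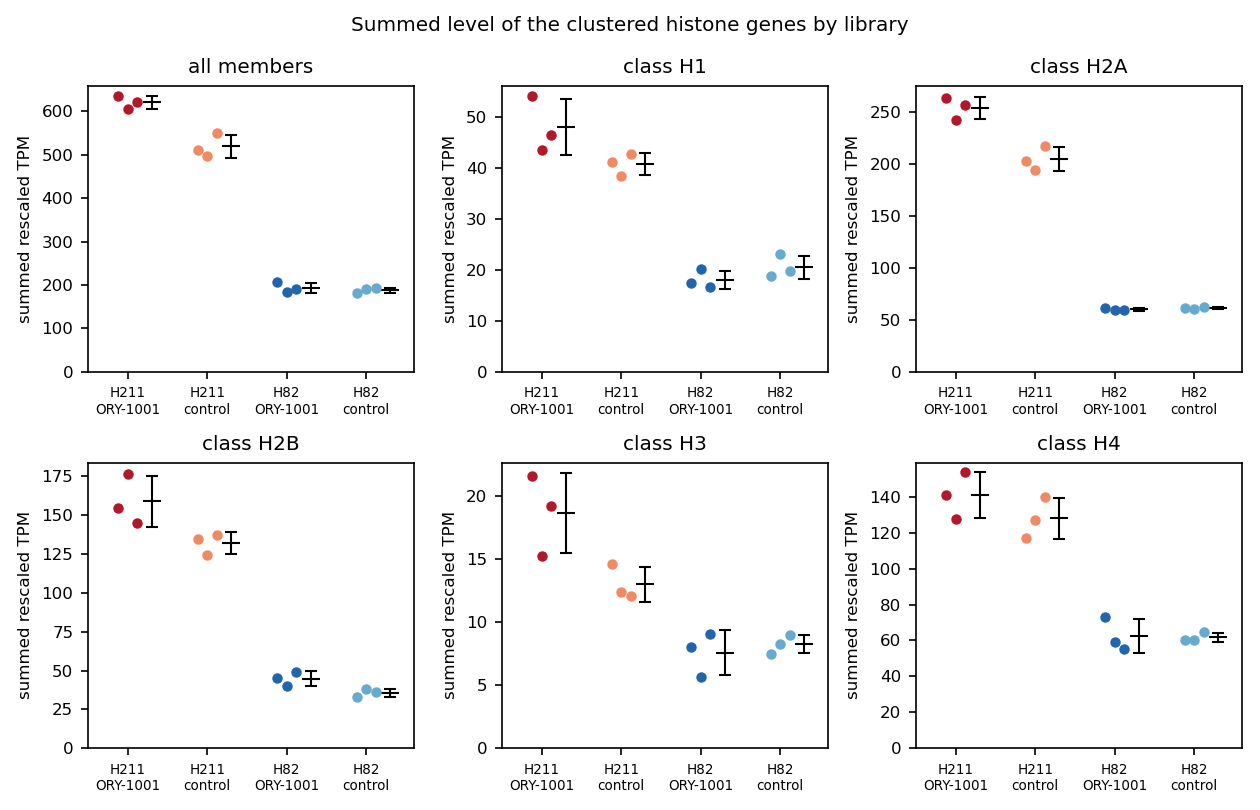
Summed level in rescaled TPM (y axis, from 0) of all 89 clustered histone genes and of each class, by group (x axis); points are libraries, with the mean and SD over 3 libraries beside them. Summed over all members, H211 libraries sit between 497.0 and 634.9 and H82 libraries between 180.7 and 205.8.

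By class, H2A genes held the largest sum in H211, at 254.2 ± 10.7 with ORY-1001 and 205.2 ± 11.6 in controls (SD, n = 3 each). H2B genes followed with 158.7 ± 16.2 and 132.0 ± 6.92, and H4 genes with 140.9 ± 13.1 and 128.0 ± 11.4. H1 genes summed to 48.2 ± 5.49 in treated H211 cells and 40.9 ± 2.13 in controls, and H3 genes to 18.7 ± 3.17 and 13.0 ± 1.39. In H211 the treated libraries of the H1, H2A, H2B and H3 sums all lay above the controls, while the H4 sums overlapped, at 127.8 to 153.9 against 117.0 to 139.8. In H82 the H2B sum alone was without overlap, at 40.12 to 49.27 with ORY-1001 and 33.14 to 38.11 in controls. That sum includes the annotated pseudogene HIST2H2BC, which averaged 8.95 with ORY-1001 and 4.39 in controls. HIST1H2BK went the other way, at 5.1 and 9.57. Of 13 tested H2B members in H82, 9 log2 changes were above 0 and 3 below. The H2A sum of H82 lay at 60.3 ± 1.42 with ORY-1001 and 61.5 ± 1.18 in controls.

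**Figure D2:**
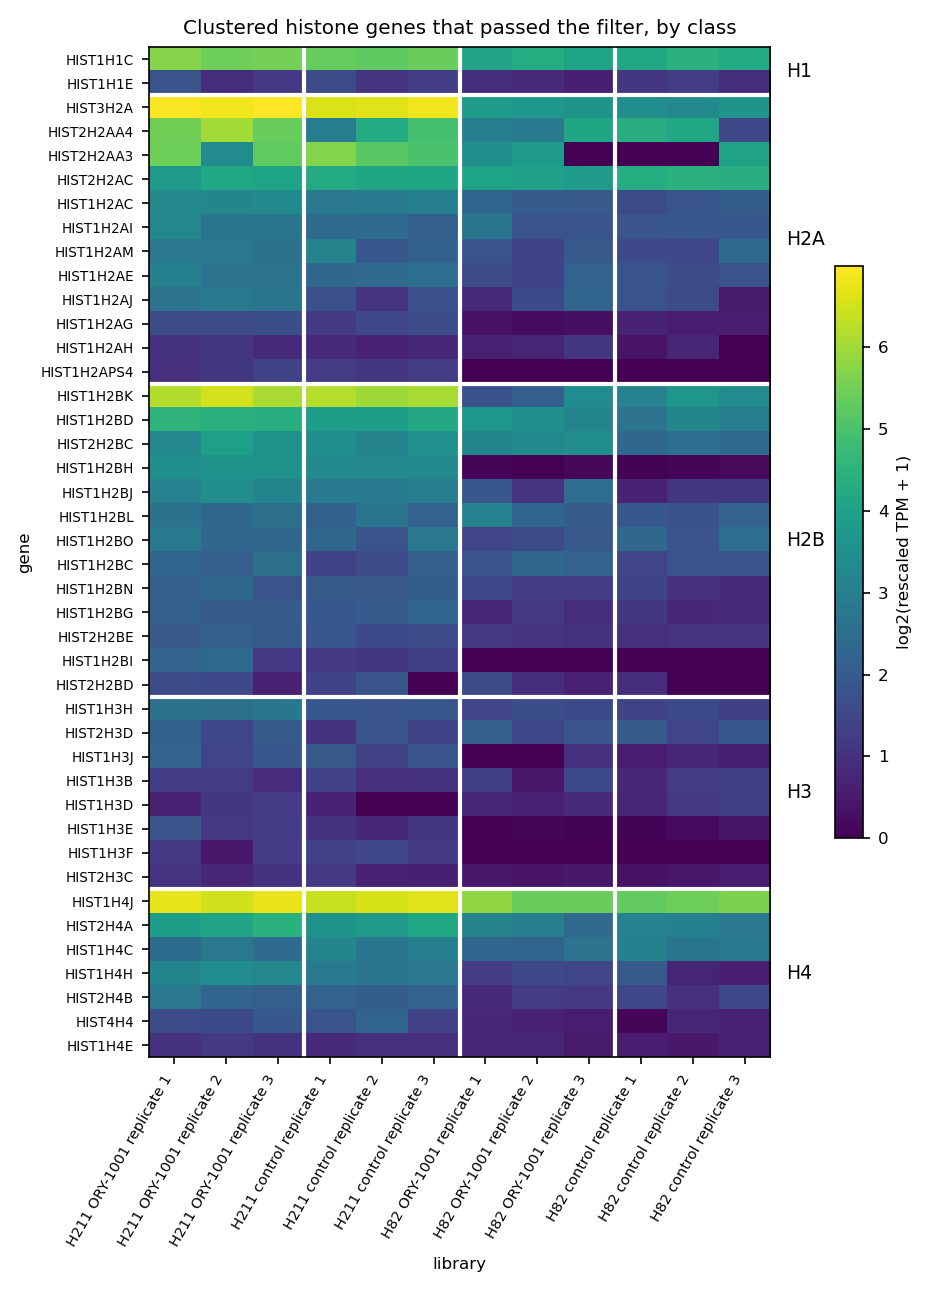
Level of each of the 42 tested clustered histone genes (rows, grouped by class and sorted by mean) in the 12 libraries (columns), as log2(rescaled TPM + 1) by colour. HIST3H2A, HIST1H2BK and HIST1H4J are bright in the 6 H211 libraries, while HIST1H2BH, HIST1H2BI, HIST1H3F and HIST1H2APS4 are dark in the 6 H82 libraries.

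Among the H2A genes, HIST3H2A (chr1:228456979-228457873, minus strand) was the most abundant in H211, while in H82 HIST2H2AC stood above it, averaging 14.7 ± 1.12 with ORY-1001 and 20.02 ± 1.01 in controls. It stood at 122.4, 114.5 and 126.3 in H211 with ORY-1001, 98.29, 100.7 and 113.0 in H211 controls, 13.7, 12.25 and 11.32 in H82 with ORY-1001 and 9.692, 8.866 and 11.39 in H82 controls. Every H211 library was above every H82 library, and control H211 cells held 10.4 times the level of control H82 cells (log2 difference 3.26 ± 0.0914 SE, adjusted p = 2.12e-11). This and the following adjusted p-values are from limma, with Benjamini-Hochberg adjustment over the 15456 genes tested, and log2 differences are of level + 1. HIST1H2AC (chr6:26124145-26139116, plus strand) stood at 8.768, 8.279 and 9.173 in H211 with ORY-1001, 6.007, 6.227 and 7.082 in H211 controls, 3.88, 3.089 and 2.847 in H82 with ORY-1001 and 2.085, 2.572 and 3.168 in H82 controls. The H211 controls were again all above the H82 controls, 2.47-fold (log2 1.05 ± 0.123, adjusted p = 7.24e-06).

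Among the H2B genes, HIST1H2BK (chr6:27146418-27146798, minus strand) led in H211 and in H82 controls, and HIST1H2BD in H82 with ORY-1001. The level of HIST1H2BK was 72.22, 89.75 and 67.7 in H211 with ORY-1001, 73.03, 63.1 and 67.02 in H211 controls, 2.359, 3.279 and 9.648 in H82 with ORY-1001 and 7.531, 11.89 and 9.292 in H82 controls. The lines did not overlap, and H211 controls held 7.08 times the level of H82 controls (log2 2.72 ± 0.333, adjusted p = 1.1e-05). It shares 86.3% of its 31-base stretches with other genes, most often with H2BFS, an H2B gene outside the named clusters. How reads were split between HIST1H2BK and H2BFS is uncertain. The sum of both was 112.7 to 125.9 in H211 controls and 12.04 to 19.2 in H82 controls, also without overlap. HIST1H2BH (chr6:26251651-26253710, plus strand), which shares only 3.65% of its stretches, was at 9.011, 8.788 and 8.904 in H211 controls and at 0.03248, 0.0956 and 0.1361 in H82 controls, and at 10.27, 10.85 and 11.1 in H211 and 0.09023, 0.0 and 0.1187 in H82 with ORY-1001. It did not reach a level of 1 in any H82 library, and it passed the threshold through H211 only.

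HIST2H2BE (chr1:149884459-149886652, minus strand) was lower, at 2.886, 3.255 and 2.93 in H211 with ORY-1001, 2.655, 1.974 and 2.081 in H211 controls, 1.232, 1.113 and 1.053 in H82 with ORY-1001 and 0.9286, 1.102 and 1.128 in H82 controls. The H211 controls were all above the H82 controls, by 2.12-fold (log2 0.65 ± 0.101, adjusted p = 7.96e-05). HIST1H2BD (chr6:26158146-26171349, plus strand) was at 22.4, 20.54 and 20.46 in H211 with ORY-1001, 13.75, 13.98 and 17.59 in H211 controls, 12.03, 10.3 and 7.969 in H82 with ORY-1001 and 5.317, 8.306 and 6.664 in H82 controls. Between controls the line difference was 2.23-fold (log2 1.06 ± 0.158, adjusted p = 5.92e-05), again with no overlap.

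Of the linker histones, HIST1H1C (chr6:26055787-26056428, minus strand) was the abundant one. It was at 51.72, 42.29 and 45.39 in H211 with ORY-1001, 39.14, 37.05 and 41.23 in H211 controls, 15.97, 19.03 and 15.75 in H82 with ORY-1001 and 17.35, 20.89 and 18.44 in H82 controls. H211 controls lay above H82 controls without overlap, 2.07-fold (log2 1.02 ± 0.0944, adjusted p = 9.1e-07). HIST1H1E, the other tested H1 gene, was at 2.448, 0.8713 and 1.264 in H211 with ORY-1001, 2.08, 1.131 and 1.396 in H211 controls, 0.8754, 0.7819 and 0.5378 in H82 with ORY-1001 and 1.151, 1.427 and 0.8721 in H82 controls. It averaged 1.54 ± 0.49 in H211 controls and 1.15 ± 0.277 in H82 controls (SD, n = 3 each), which overlapped (adjusted p = 0.339).

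Most H4 genes encode the same protein, and most of their summed level came from HIST1H4J (chr6:27824108-27824480, plus strand). It stood at 104.8, 88.66 and 109.7 in H211 with ORY-1001, 83.11, 94.43 and 101.5 in H211 controls, 55.54, 41.03 and 41.12 in H82 with ORY-1001 and 38.44, 42.74 and 47.75 in H82 controls. The lines did not overlap, with 2.16 times the level in H211 controls (log2 1.1 ± 0.128, adjusted p = 7.35e-06). It shares 82.2% of its 31-base stretches with other genes, most often with HIST1H4K. That gene is listed at 0 in all 12 libraries, so the level may belong to either. HIST2H4A was at 13.94, 15.84 and 21.3 in H211 with ORY-1001, 11.12, 12.64 and 17.39 in H211 controls, 7.709, 6.95 and 4.343 in H82 with ORY-1001 and 7.589, 7.402 and 5.991 in H82 controls. It shares 98.6% of its stretches with other genes, most often with HIST2H4B. Its controls did not overlap between the lines, at 13.7 ± 3.27 in H211 controls and 6.99 ± 0.874 in H82 controls (SD, n = 3 each, adjusted p = 0.00254).

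H3 genes were the lowest class, with the highest group mean at 5.27. HIST1H3H (chr6:27810064-27811300, plus strand), the highest in H211, was at 5.155, 4.96 and 5.708 in H211 with ORY-1001, 2.76, 2.574 and 2.66 in H211 controls, 1.733, 2.225 and 1.997 in H82 with ORY-1001 and 1.713, 1.981 and 1.504 in H82 controls. Its controls differed between the lines 1.54-fold without overlap (log2 0.43 ± 0.0971, adjusted p = 0.00158). HIST2H3D, the highest in H82, was at 3.482, 1.795 and 2.944 in H211 with ORY-1001, 1.041, 2.53 and 1.688 in H211 controls, 3.36, 1.829 and 2.58 in H82 with ORY-1001 and 3.003, 1.735 and 2.751 in H82 controls. Its controls averaged 1.75 ± 0.746 in H211 and 2.5 ± 0.671 in H82 and overlapped (adjusted p = 0.194). It shares 86.4% of its stretches with other genes, most often with AC239798.4. HIST1H3J was at 3.571, 1.779 and 2.757 in H211 with ORY-1001, 2.904, 1.614 and 2.537 in H211 controls, 0.0, 0.0 and 0.9872 in H82 with ORY-1001 and 0.4654, 0.7053 and 0.5429 in H82 controls. It averaged 2.35 ± 0.665 in H211 controls and 0.571 ± 0.122 in H82 controls, but overlaps HIST1H2AM on the genome, so that its reads are uncertain.

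**Figure D3:**
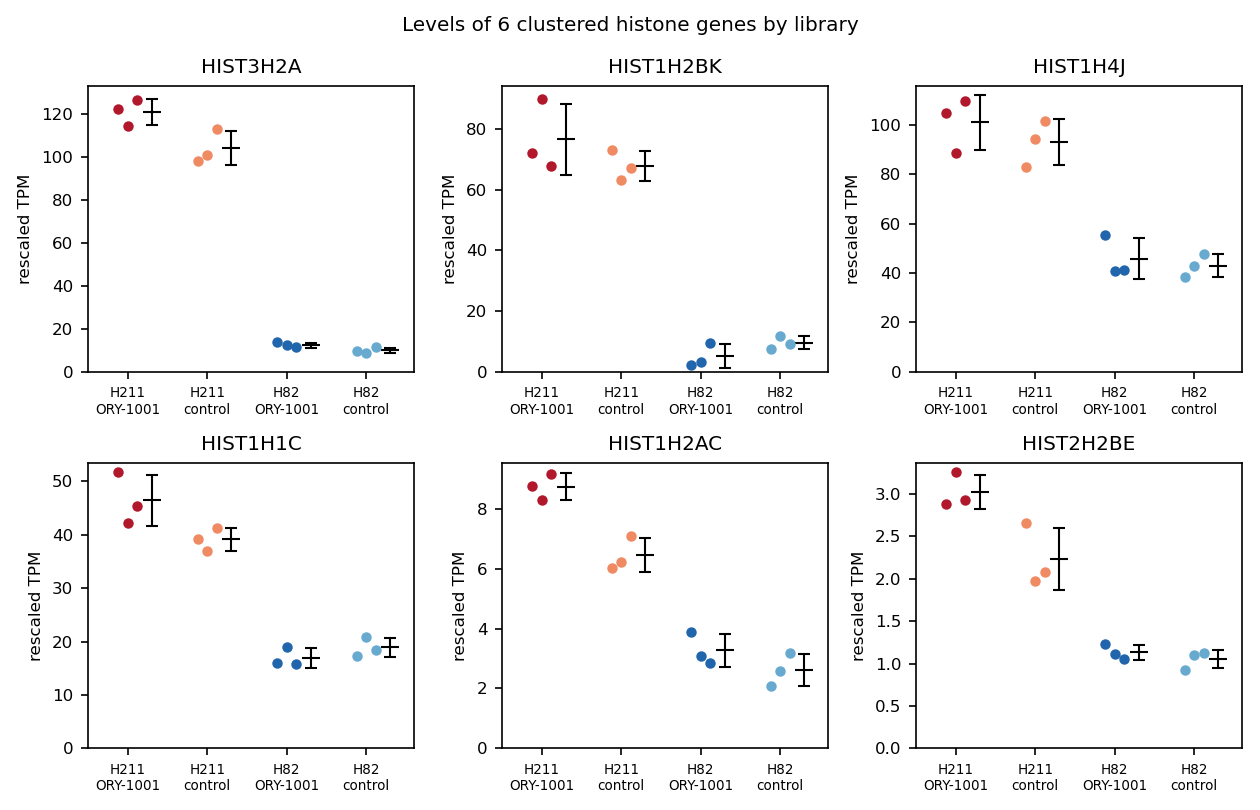
Level in rescaled TPM (y axis, from 0) of 6 clustered histone genes in each library by group (x axis), with the mean and SD over 3 libraries beside the points. HIST3H2A and HIST1H2BK lie far lower in both H82 groups than in both H211 groups, and HIST1H1C, HIST1H2AC, HIST2H2BE and HIST1H4J by smaller steps.

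Counted over the 27 members that reached the threshold in each line, 16 were higher in H211 controls than in H82 controls and 0 were lower, also at an unadjusted p under 0.05. The 16 are 59.3% of the 27. Over all genes tested, which need not reach the threshold in each line, 39.7% were higher and 40.8% lower in that comparison. At an unadjusted p under 0.05 these were 6198 and 6373 of 15456. The median log2 difference was 0.72 over the 27 and -0.02 over all genes tested. With ORY-1001 in both lines, 19 of the 27, or 70.4%, were higher in H211 and 0 lower. Of all genes, 39.7% were higher and 40.6% lower, and the median was 1.05 over the 27 against -0.02 over all genes. Among all 42 tested members, HIST1H3D was the only one called lower in H211 controls, at 0.6297, 0.0 and 0.0 in H211 controls and 0.673, 1.297 and 1.443 in H82 controls. HIST1H3D overlaps the read-through gene AL031777.3 on the genome and shares all its 31-base stretches with other genes, so its own level is uncertain. Among controls it reached a level of 1 only in H82, so the filter favoured this direction. Library totals without mitochondrial genes raised the median of all genes in the control comparison to 0.14, and the RNAs without a tail, summed over 24 genes, were at 1536 to 2638 in H211 controls and 1082 to 1578 in H82 controls. Their part in the line difference was not tested.

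In H211, ORY-1001 raised 5 of the 42 tested members and lowered 0. Over all genes tested, 8.95% were higher and 9.61% lower in H211, so that the 5 amount to 11.9% of the members beside a background of 8.95%. At an unadjusted p under 0.05, 14 members were higher and 1 lower, beside 2360 and 2474 of the 15456 genes tested. Of the 42 log2 changes, 34 were above 0, which is 81.0% of them beside 49.1% of all genes, and the median was 0.23 beside -0.0021 over all genes. Some members, as HIST1H4E and HIST1H2AH, reached a level of 1 only in treated libraries, so the filter favoured a rise for them. Near-identical copies also count as separate changes. Over the 27 members that reached the threshold in each line, 4 rose and 0 fell, or 14.8% and 0.0%, and 24 changes were above 0. By class, 2 of 12 H2A, 1 of 13 H2B and 2 of 8 H3 genes rose, and 0 of 2 H1 and 0 of 7 H4 genes. Most members did not pass the test.

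HIST1H3H, a gene for the replication-coupled H3, rose most clearly, and the values above show the 3 treated H211 libraries near 5 and the 3 controls under 3. Its level was 1.98 times as high with ORY-1001 (log2 0.77 ± 0.0971 SE, n = 3 each, adjusted p = 0.000267). HIST1H2AC rose 1.36-fold (log2 0.39 ± 0.123, adjusted p = 0.0476) and HIST2H2BE 1.35-fold (log2 0.32 ± 0.101, adjusted p = 0.0483), both without overlap between the groups. HIST1H2AJ, an H2A gene, was at 5.289, 6.057 and 5.412 with ORY-1001 and 2.338, 1.074 and 2.251 in controls, which is 2.96-fold (log2 1.22 ± 0.38, adjusted p = 0.0454). HIST1H3D was at 0.6072, 1.187 and 1.359 with ORY-1001 and 0.6297, 0.0 and 0.0 in controls, where 1 control lay above the lowest treated library (log2 0.78 ± 0.219, adjusted p = 0.0296). In H211 it reached a level of 1 only in treated libraries, so the filter favoured a rise.

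Other abundant members were higher in H211 without passing the test. HIST3H2A averaged 121.0 ± 6.03 with ORY-1001 and 104.0 ± 7.92 in controls (SD, n = 3 each), with no overlap but an adjusted p = 0.125. HIST1H1C averaged 46.5 ± 4.81 with ORY-1001 and 39.1 ± 2.09 in controls, also without overlap (adjusted p = 0.106). HIST1H2BD averaged 21.1 ± 1.1 with ORY-1001 and 15.1 ± 2.15 in controls (adjusted p = 0.0634). HIST1H4C was lower, at 4.572, 5.9 and 4.453 with ORY-1001 and 8.149, 5.738 and 7.143 in controls, which overlapped (log2 -0.42 ± 0.152, adjusted p = 0.0792).

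Of the 5 calls in H211, that of HIST1H3H held when any single library was left out, and was lost (adjusted p = 0.0674) without the 4 libraries apart in blood transcripts, which leaves 1 H211 control assumed to vary like the other groups. The other 4 calls were lost there too (0.132 to 0.583). The log2 change in that fit was 0.73 for HIST1H3H, 0.91 for HIST1H3D, 0.4 for HIST2H2BE, 1.03 for HIST1H2AJ and 0.24 for HIST1H2AC, beside 0.77, 0.78, 0.32, 1.22 and 0.39 with all 12 libraries. The part of these 4 libraries in the calls was not tested. HIST1H2AC lost its call without any of H211 ORY-1001 replicates 1, 2 or 3, H211 control replicates 1 or 2, or H82 replicate 2 of either group (adjusted p = 0.0611 to 0.142). HIST1H2AJ lost it without any H211 library or without H82 replicate 2 of either group (0.0554 to 0.152). HIST1H3D lost it without H211 ORY-1001 or control replicates 2 or 3 (0.0847 to 0.106), and HIST2H2BE without any library except H211 control replicate 1 (0.0532 to 0.156). With library totals taken without mitochondrial genes, 958 of all genes were higher and 2009 lower in H211, beside 1383 and 1485 with the values as deposited, and 3 members were higher and 0 lower. The fibroblast markers, 5 genes of which none was at 0 in all libraries of a group, summed to 64.75 to 71.14 in H211 with ORY-1001 and 5.849 to 6.127 in H211 controls, almost all of it DCN. The part of these in the H211 result was not tested.

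In H82, 4 of the 42 tested members rose with ORY-1001 and 4 fell. Each is 9.52% of the members, where 19.1% of all genes rose and 23.9% fell in H82, and 13 of the members passed the filter through H211 only. Over the 27 members that reached the threshold in each line, 4 rose and 3 fell, which is 14.8% and 11.1%. At an unadjusted p under 0.05, 6 of the 42 were higher and 5 lower, beside 3491 and 4240 of the 15456 genes tested. The median log2 change was 0.02 over the members and -0.02 over all genes. HIST2H2BC (chr1:149844498-149850937, minus strand), an annotated H2B pseudogene that overlaps HIST2H2BD on the genome, rose most clearly: it was at 8.238, 8.898 and 9.7 with ORY-1001 and 4.071, 4.846 and 4.265 in controls. The groups did not overlap and differed 2.04-fold (log2 0.88 ± 0.156, adjusted p = 0.000854). The call held when any library was left out and without the 4 libraries. In H211 the same gene was at 8.603, 14.28 and 10.99 with ORY-1001 and 9.696, 7.691 and 10.6 in controls, which overlapped (adjusted p = 0.343).

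HIST2H2AC (chr1:149886975-149887364, plus strand), an H2A gene, fell: it was at 15.59, 15.13 and 13.47 with ORY-1001 and 19.1, 21.11 and 19.85 in controls, with no overlap (0.736 of the control mean, log2 -0.42 ± 0.101, adjusted p = 0.00596). HIST1H4C (chr6:26103876-26104310, plus strand) fell as well, to 3.866, 3.811 and 5.304 with ORY-1001, against 7.395, 5.606 and 6.178 in controls (log2 -0.48 ± 0.152, adjusted p = 0.0251). HIST1H2AG, an H2A gene of low level, was at 0.2624, 0.1833 and 0.2205 with ORY-1001 and 0.598, 0.4763 and 0.4783 in controls (log2 -0.31 ± 0.112, adjusted p = 0.0431). All 3 were without overlap between the groups. HIST1H2BK averaged 5.1 ± 3.97 with ORY-1001 and 9.57 ± 2.19 in controls (log2 -0.96 ± 0.333, adjusted p = 0.0365), with H82 ORY-1001 replicate 3 inside the range of the controls.

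Besides HIST2H2BC, the members that rose in H82 were HIST1H2BD, HIST3H2A and HIST1H2BJ. HIST1H2BD rose 1.49-fold (log2 0.52 ± 0.158, adjusted p = 0.0208) and HIST3H2A 1.24-fold (log2 0.29 ± 0.0914, adjusted p = 0.0233). In both, the lowest treated library lay below the highest control. HIST1H2BJ was at 2.712, 1.11 and 4.703 with ORY-1001 and 0.6171, 1.171 and 1.175 in controls, which overlapped (log2 0.85 ± 0.279, adjusted p = 0.029). In H211 it was at 7.578, 9.85 and 7.889 with ORY-1001 and 6.353, 6.449 and 6.941 in controls, without overlap and not called (adjusted p = 0.499). HIST1H1C and HIST2H2BE were not called, with log2 changes of -0.15 ± 0.0944 and 0.06 ± 0.101 (adjusted p = 0.227 and 0.708).

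HIST2H2AC kept its call without any single library and lost it without the 4 libraries (adjusted p = 0.0572). HIST3H2A lost its call without H82 ORY-1001 replicate 1 or H82 control replicates 1 or 2 (0.0645 to 0.0938), and HIST1H2BD and HIST1H4C without H82 ORY-1001 replicates 1 or 2 or H82 control replicates 1 or 3 (0.0501 to 0.095). HIST1H2BJ lost it without H82 ORY-1001 replicates 1 or 3, H82 control replicate 1 or the 4 libraries (0.0744 to 0.176), HIST1H2BK without H82 ORY-1001 replicates 1 or 2 or H82 control replicates 2 or 3 (0.0757 to 0.144), and HIST1H2AG without any H82 library, any treated H211 library, H211 control replicate 2 or the 4 libraries (0.0515 to 0.12).

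**Figure D4:**
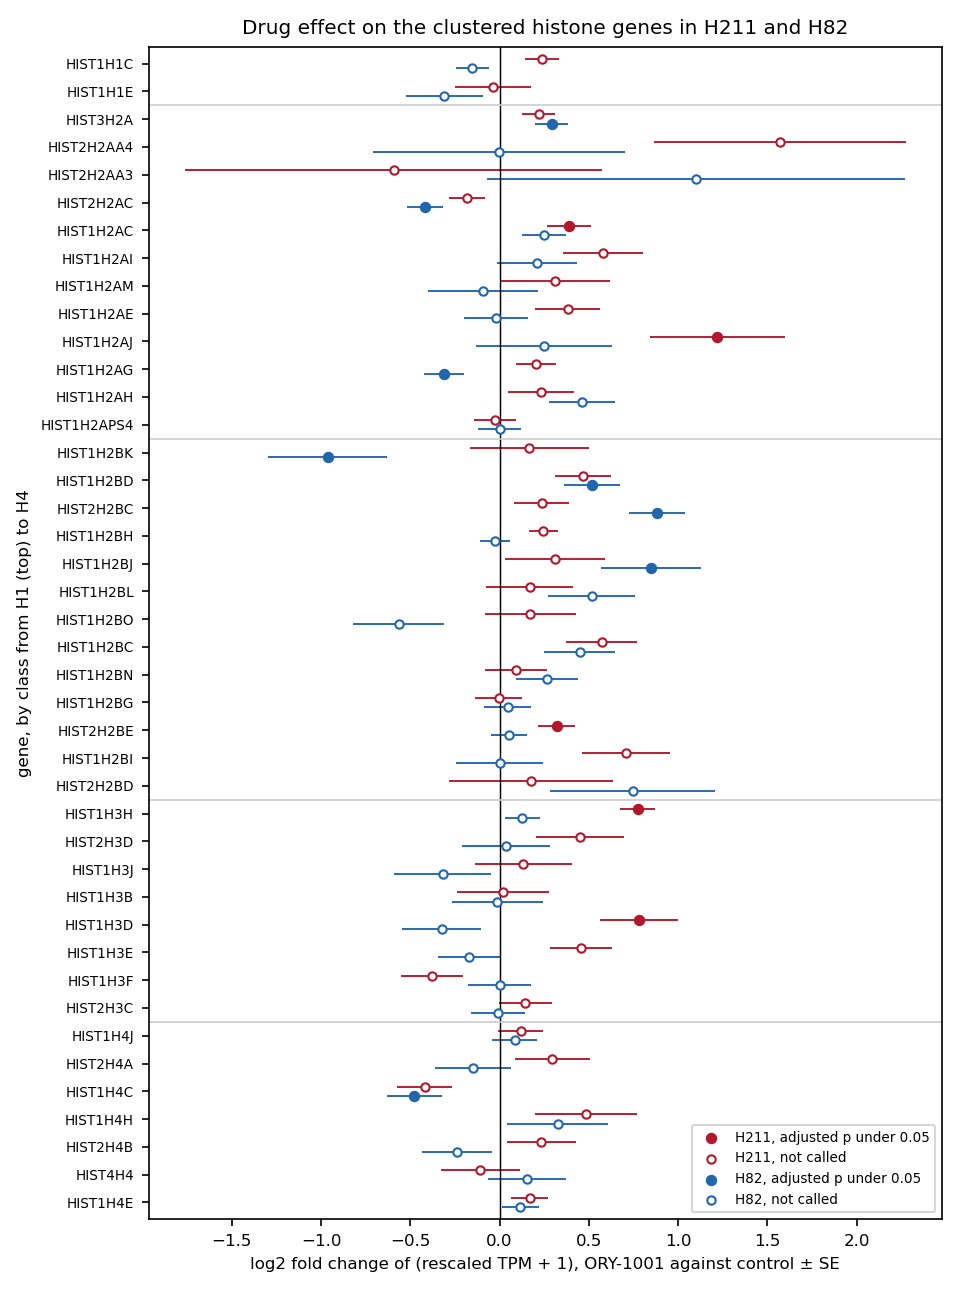
Log2 fold change of level + 1 with ORY-1001 against control (x axis, bars are the SE) for each of the 42 tested genes (y axis, by class) in H211 (red) and H82 (blue), filled where the adjusted p was under 0.05. Most H211 points lie to the right of 0, and H82 points lie on both sides.

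The drug effect differed between the lines for 5 of the 42 tested members, 4 with a higher log2 change in H211 and 1 with a lower one. Over all genes tested, 17.8% had a higher and 14.3% a lower change in H211 than in H82, beside 9.52% and 2.38% of the 42 members. Over the 27 members that reached the threshold in each line, 2 had a higher and 1 a lower change in H211, which is 7.41% and 3.7%. HIST1H2AG passed through H211 only, and HIST1H3D only with both lines together. HIST1H3D reached 1 only in H211 ORY-1001 replicates 2 and 3 (1.187 and 1.359) and H82 control replicates 2 and 3 (1.297 and 1.443). The filter thus favoured a positive difference for it. The 4 with a higher change in H211 were HIST1H3H (difference 0.647 ± 0.137 SE, adjusted p = 0.00433), HIST1H3D (1.11 ± 0.31, adjusted p = 0.0184), HIST1H2AG (0.52 ± 0.159, adjusted p = 0.0284) and HIST1H1C (0.39 ± 0.133, adjusted p = 0.0444). The other was HIST2H2BC (-0.65 ± 0.221, adjusted p = 0.044). For HIST3H2A, HIST1H2AC and HIST2H2BE the difference was -0.07 ± 0.129, 0.14 ± 0.174 and 0.26 ± 0.142, with adjusted p = 0.707, 0.572 and 0.186. Without single libraries HIST1H3H and HIST1H3D kept their call, and HIST1H2AG lost it without H82 ORY-1001 replicates 2 or 3, H82 control replicate 1, H211 ORY-1001 replicate 3 or H211 control replicate 1 (0.0506 to 0.061). HIST1H1C kept it without H82 ORY-1001 replicate 2, H82 control replicate 1, H211 ORY-1001 replicate 2 or H211 control replicate 3 and lost it without any other (0.0638 to 0.101), and HIST2H2BC kept it without H82 control replicate 2, H211 ORY-1001 replicate 2 or H211 control replicate 2 and lost it without any other (0.0521 to 0.0971).

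Near-identical copies bear on how single members read. In the transcripts used, 11 tested members share over 80% of their 31-base stretches with other genes, while 25 share under 20%. HIST2H2AA3 (chr1:149842188-149842736, minus strand) and HIST2H2AA4 (chr1:149851061-149851624, plus strand) are H2A genes. They share 97.2% or more of theirs with other genes, each most often with the other copy. HIST2H2AA3 was at 43.05, 9.358 and 37.92 in H211 with ORY-1001, 50.81, 35.92 and 30.95 in H211 controls, 10.06, 13.62 and 0.0 in H82 with ORY-1001 and 0.0, 0.0 and 15.35 in H82 controls. HIST2H2AA4 was at 43.65, 64.1 and 40.48 in H211 with ORY-1001, 6.685, 18.72 and 29.6 in H211 controls, 6.906, 6.471 and 16.54 in H82 with ORY-1001 and 19.49, 16.87 and 1.862 in H82 controls. Where one copy was high the other tended to be low within a group, and neither passed the test in either line.

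Their sum was far steadier. It was 86.7, 73.46 and 78.4 in H211 with ORY-1001, 57.49, 54.64 and 60.55 in H211 controls, 16.97, 20.09 and 16.54 in H82 with ORY-1001 and 19.49, 16.87 and 17.22 in H82 controls. Within groups the coefficient of variation was 5.14 to 10.9% for the sum and 25.9 to 173% for the single copies. In H211 the sum rose 1.38-fold without overlap (log2 0.46 ± 0.0854 SE, n = 3 each, adjusted p = 0.0037), in H82 the groups overlapped, and the drug effects differed by 0.46 ± 0.121 on the log2 scale (adjusted p = 0.0136). H211 controls held 3.22 times the sum of H82 controls (adjusted p = 4.47e-09). Summing copies was chosen after the values were seen. Both drug results of the sum held without any single library and were lost without the 4 libraries (adjusted p = 0.191 and 0.215).

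**Figure D5:**
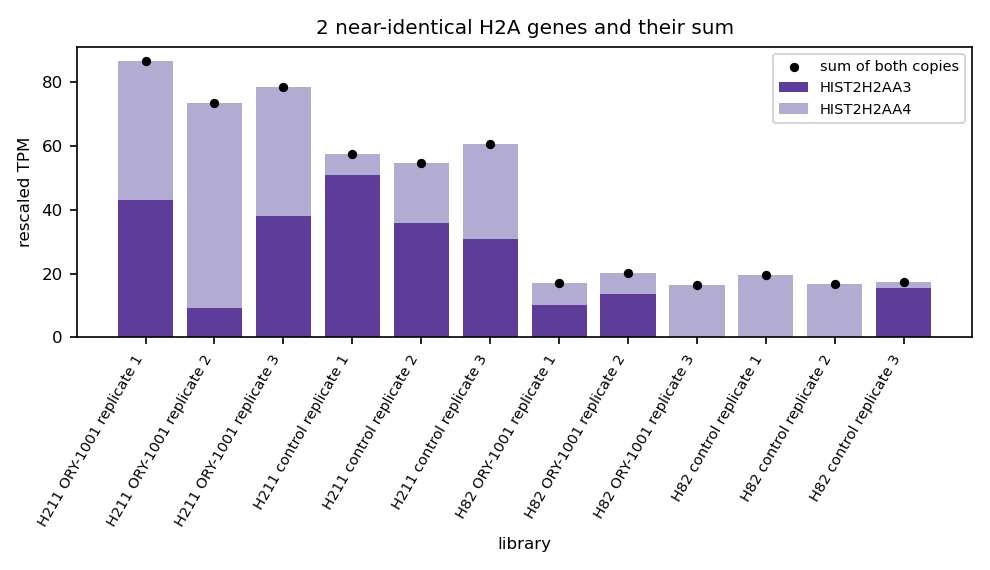
Level in rescaled TPM (y axis, from 0) of HIST2H2AA3 and HIST2H2AA4 stacked in each library (x axis), with their sum as a point. The split between the copies varies among libraries of a group, while the sums lie at 73.46 to 86.7, 54.64 to 60.55, 16.54 to 20.09 and 16.87 to 19.49 in the groups from left to right.

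Of 9 such sums, 4 rose in H211 and 0 fell, this one among them, and 5 did not pass (adjusted p = 0.221 to 0.78). HIST1H2AI and HIST1H2AJ together were at 13.79, 11.69 and 11.05 with ORY-1001 and 6.659, 5.473 and 5.603 in controls, a 2.06-fold rise without overlap (log2 0.93 ± 0.158, adjusted p = 0.00207). This held without any single library and was lost without the 4 libraries (adjusted p = 0.08). HIST2H3A and HIST2H3C together were at 2.182, 1.386 and 2.091 with ORY-1001 and 1.231, 1.132 and 1.066 in controls (log2 0.42 ± 0.127, adjusted p = 0.0407), and HIST1H3D with AL031777.3 at 1.581, 2.237 and 3.153 with ORY-1001 and 1.645, 0.9136 and 0.864 in controls (log2 0.63 ± 0.186, adjusted p = 0.0375). Each of these sums lost its call without several of the 12 libraries, with adjusted p up to 0.351 and 0.154 over all libraries left out. HIST1H2BK with H2BFS fell in H82, at 6.325, 6.411 and 15.7 with ORY-1001 and 12.04, 19.2 and 18.63 in controls (log2 -0.84 ± 0.275, adjusted p = 0.0288), and this was lost without H82 ORY-1001 replicates 1 or 2 or H82 control replicates 2 or 3 (highest adjusted p = 0.113).

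Many of these genes stand back to back: 17 pairs start within 500 bases of each other on opposite strands, 123 to 405 bases apart, and in 11 of them both genes were tested. In H211 controls the means of both genes lay within 2-fold of each other in 6 of the 11 pairs, as for HIST1H2BL and HIST1H2AI at 4.19 and 4.02, and in the other 5 they lay further apart. In H82 controls 4 of the 11 lay within 2-fold. HIST1H2BO enters both with HIST1H3J and with HIST1H2AM, which overlap each other. Wide gaps stood, among others, at HIST3H2A, whose partner did not pass the filter, and at HIST1H2BK. Another was at HIST2H2AA3 and HIST2H2BD, at 39.2 and 1.4 in H211 controls. HIST3H2A averaged 121.0 in H211 with ORY-1001 and 104.0 in H211 controls, while HIST3H2BB, the H2B gene 233 bases away, averaged 0.709 and 0.526. HIST1H2BK averaged 76.6 and 67.7 in the same groups, while HIST1H2AH, 330 bases away, averaged 1.02 and 0.714. Nor did partners move together in every case. HIST2H2AC fell in H82 while HIST2H2BE, 322 bases away, did not pass the test there, and HIST2H2BE rose in H211 while HIST2H2AC averaged 15.1 ± 2.38 with ORY-1001 and 17.1 ± 1.05 in controls (adjusted p = 0.258). HIST1H2BJ rose and HIST1H2AG, 291 bases away, fell in H82. HIST1H2AC and HIST1H2BC, 218 bases apart, were both higher in H211 with ORY-1001, at 8.74 and 4.01 against 6.44 and 2.4 in controls, of which the first passed the test.

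Histone genes outside the clusters, many of which are known to make polyadenylated mRNA, had far higher summed levels in these libraries. Enrichment on oligo(dT) beads does not capture mRNA with and without a tail alike, so total mRNA is not compared. The list also holds H2BFS, whose reads cannot be split with certainty from those of HIST1H2BK. The replacement and variant histone list, 21 genes of which 12 were tested, summed to 5001 ± 39.5 in H211 with ORY-1001, 5121 ± 39.7 in H211 controls, 4315 ± 134 in H82 with ORY-1001 and 5093 ± 46.3 in H82 controls. In H211, 0 of the 12 rose and 2 fell, or 16.7% beside 9.61% of all genes. In H82, 1 rose and 6 fell, beside 19.1% and 23.9% of all genes. H1F0, a linker histone linked to differentiated cells, fell in both lines: it was at 100.6, 94.17 and 97.51 in H211 with ORY-1001 and 186.6, 180.2 and 190.4 in H211 controls (log2 -0.92 ± 0.0436, adjusted p = 1.04e-07). In H82 it was at 77.34, 75.26 and 77.4 with ORY-1001 and 136.2, 125.4 and 123.6 in controls (log2 -0.735 ± 0.0436, adjusted p = 3.5e-07). H1FX, another linker histone, averaged 74.2 ± 4.16 in H211 with ORY-1001 and 95.4 ± 0.744 in H211 controls (adjusted p = 0.000393), and 280.0 ± 10.2 in H82 with ORY-1001 and 466.4 ± 20.8 in H82 controls (adjusted p = 6.7e-07). The third by p in H82 was H2AFV, an H2A variant, at 376.3 ± 6.95 with ORY-1001 and 504.6 ± 11.0 in controls (adjusted p = 2.09e-06).

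Genes of DNA replication, a list of 32 that marks S phase, gave no rise in H211. There, 0 rose and 10 fell, with 9.61% of all genes lower, and 28 of the 32 log2 changes were below 0 with a median of -0.14. At an unadjusted p under 0.05, 14 of the 32 passed in H211, beside 4834 of the 15456 genes tested. MCM3, of the replicative helicase, averaged 116.5 ± 4.7 with ORY-1001 and 135.8 ± 2.95 in controls (adjusted p = 0.00218), and RRM2, of ribonucleotide reductase, averaged 62.5 ± 4.38 and 77.6 ± 1.71 (adjusted p = 0.00325). POLD1, of DNA polymerase delta, averaged 65.4 ± 1.13 with ORY-1001 and 74.2 ± 1.5 in controls (adjusted p = 0.00715). In H82, 7 of the 32 rose and 8 fell, or 21.9% and 25.0%, near the 19.1% and 23.9% of all genes. There MCM3 averaged 97.4 ± 2.02 with ORY-1001 and 134.0 ± 2.62 in controls (adjusted p = 3.94e-06), and CDT1, which loads the helicase, 43.6 ± 3.62 and 99.3 ± 4.12 (adjusted p = 4.25e-06). RFC3, of the clamp loader, rose in H82, to 86.1 ± 3.4 with ORY-1001 against 66.3 ± 1.12 in controls (adjusted p = 1.95e-05). Between the control cultures, 9 of the 32 were higher and 19 lower in H211 than in H82.

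Factors that transcribe histone genes and process their 3′ ends were 25 tested genes, of which 1 rose and 3 fell in H211 and 4 rose and 7 fell in H82. Of all genes 8.95% rose and 9.61% fell in H211 and 19.1% rose and 23.9% fell in H82, so that the counts say nothing particular of the list. LSM10, a subunit of the U7 snRNP, rose in both lines: it was at 92.81, 90.82 and 92.54 in H211 with ORY-1001 and 75.26, 75.6 and 75.25 in H211 controls (log2 0.29 ± 0.0488, adjusted p = 0.00213). In H82 it was at 63.1, 55.01 and 57.92 with ORY-1001 and 43.25, 41.92 and 45.24 in controls (log2 0.42 ± 0.0488, adjusted p = 4.31e-05). In H211, CDK2 and CCNE2, which drive S phase entry, averaged 66.0 ± 2.36 and 12.8 ± 1.47 with ORY-1001 and 74.8 ± 1.6 and 17.01 ± 0.936 in controls (adjusted p = 0.0185 and 0.0223). In H82, FIP1L1 and CPSF2, of the cleavage and polyadenylation machinery, averaged 34.0 ± 2.73 and 40.0 ± 2.86 with ORY-1001 and 46.5 ± 2.82 and 29.9 ± 2.44 in controls (adjusted p = 0.000288 and 0.00211), the first falling and the other rising.

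Of 22 histone chaperones, which carry histones to and from DNA, 0 rose and 4 fell in H211 and 4 rose and 6 fell in H82. The 4 that fell in H211 are 18.2% beside 9.61% of all genes, and the shares in H82 are 18.2% and 27.3%, near the 19.1% and 23.9% of all genes. In H211, CHAF1B averaged 21.2 ± 0.765 with ORY-1001 and 24.6 ± 0.52 in controls, and MCM2 and ASF1B also fell (adjusted p = 0.0145, 0.0159 and 0.0412). In H82, RBBP4, NAP1L1 and SSRP1 fell, RBBP4 averaging 346.8 ± 2.66 with ORY-1001 and 478.9 ± 12.5 in controls (adjusted p = 1.53e-06, 9.83e-06 and 0.000131). At an unadjusted p under 0.05, 9 of the 22 passed in H211, beside 4834 of the 15456 genes tested. Of 13 tested RNAs that have no poly(A) tail, 0 rose and 1 fell in H211 and 2 rose and 0 fell in H82. At an unadjusted p under 0.05, 1 of the 13 passed in H211 and 3 in H82, beside 4834 and 7731 of the 15456 genes tested. Their list summed to 1100 to 1596 in H211 with ORY-1001 and 1536 to 2638 in H211 controls, and to 1251 to 1600 in H82 with ORY-1001 and 1082 to 1578 in H82 controls. In H211 RN7SL2, of the signal recognition particle, averaged 906.5 ± 104 with ORY-1001 and 1444 ± 83.5 in controls (adjusted p = 0.00208), and in H82 RN7SL3 averaged 11.1 ± 0.335 with ORY-1001 and 6.68 ± 1.75 in controls (adjusted p = 0.0158). RNVU1-7, a U1 variant, averaged 5.85 ± 2.62 in H82 with ORY-1001 and is listed at 0 in all H82 controls (adjusted p = 1.4e-06). How much such carried RNA adds to the members' levels was not tested.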

How the data were processed

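Per the labels' protocols, mRNA from 12 samples in 4 groups was enriched on oligo(dT) beads, made into libraries with the NEBNext Ultra II kit and read as pairs. The tools named, per the submitters' processing notes, are sleuth 0.30.0, Salmon 1.1.0, DESeq2, R 4.0.4, STAR 2.5.2b, Subread 1.5.2 with featureCounts, and Trimmomatic 0.36, on hg38; their roles and the annotation release are not given in the sources used here. As signal, the authors deposited TPM values whose library totals differ, so a rescaling between libraries seems to have been made. Tests planned for TPM were kept for it, depth is unknown, and 24415 symbols were at 0 throughout.

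Values were taken as log2(value + 1), which understates changes of low genes, for genes at 1 or more in at least 3 libraries. A single fit of 4 group means to the 12 libraries was made in R 4.3.3, using limma 3.58.1 (eBayes with trend, two-sided, Benjamini-Hochberg adjustment over 15456 genes, called at adjusted p under 0.05), after it was tested on simulated data. Replicate numbers did not pair the samples. Folds are ratios of group means. Members, gene lists and tests were chosen with earlier results of these data known. Values in each library are given for HIST3H2A, HIST1H1C, HIST1H2AC, HIST2H2BE, members called with the drug and the leading members of each class (up to 3); from each list up to 3 called genes with the smallest p per line are named. HIST1H2BH, HIST3H2BB, HIST1H2AH, HIST1H2BC and the summed copies were picked once their values were known. Positions, transcripts and 31-base sharing come from GENCODE 29, promoters from RefSeq, which matched 66 members, and neither need be the authors' annotation. Alternatives changed the pseudocount, filter, scaling, variance prior, library weights, replicate block and libraries used.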

Additional observations from a re-analysis of the deposited data

Results flagged for a closer look

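The drug effect on 5 clustered histone genes differed between H211 and H82 by the test of the difference itself. They are 11.9% of the 42 tested members, where 32.1% of all genes tested differed, and 3 of them are among the 27 members that reached the threshold in each line. HIST1H3H had a log2 change 0.65 higher in H211 (adjusted p = 0.00433, limma), with 5.155, 4.96 and 5.708 in treated and 2.76, 2.574 and 2.66 in control H211 libraries and overlapping groups in H82. HIST1H3D had one 1.11 higher (adjusted p = 0.0184). It shares all its 31-base stretches with other genes, most often with AL031777.3, and was at 0 in 2 H211 controls. It reached a level of 1 only in treated H211 and control H82 libraries, so the filter favoured this difference. HIST1H2AG had one 0.52 higher (adjusted p = 0.0284), on levels under 0.6 in H82. HIST1H1C had one 0.39 higher (adjusted p = 0.0444), and was called in neither line alone. HIST2H2BC had one 0.65 lower in H211, a difference of -0.65 (adjusted p = 0.044). Without single libraries HIST1H3H and HIST1H3D kept their call, and HIST1H2AG, HIST1H1C and HIST2H2BC lost it without 5, 8 and 9 of the 12 libraries. Leaving out the 4 libraries apart in blood transcripts leaves 1 H211 control. In that fit the difference was 0.6 for HIST1H3H, 0.32 for HIST1H2AG, 0.28 for HIST1H1C and -0.77 for HIST2H2BC.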

How the results depend on the processing

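The number of members called in H82 went from 8 to 3 with no filter beyond a value above 0 and to 4 with the 6 H82 libraries alone. It was 3 to 8 when 1 library was left out. In H211 the number went from 5 to 2 with a pseudocount of 0.1, 2 with a filter of 5 and 1 with no filter. It was 3 with totals without mitochondrial genes, 3 when RNAs without a tail were also left out of the totals, and 1 to 6 over single libraries left out. Such counts need not hold the same members. For the fit without the 4 libraries apart in blood transcripts, which leaves 1 H211 control, the log2 changes of the 5 are given above. The replicate block, for numbers that share only a label (same-number r of -0.0805 to 0.0449), gave 2 in H211 and 3 of the 5 differences between the lines. The number of such differences was 2 with a filter of 5 and 3 with no filter, and 2 to 6 over single libraries. Of the line comparisons, 28 calls in controls became 13 and 31 with ORY-1001 became 15 with a filter of 5, which tests 20 members. Over single libraries they were 27 to 29 and 29 to 31. The 28 and 31 are over all 42 tested members, or 66.7% and 73.8%, where 80.5% and 80.2% of all genes were called. They include 11 and 12 of the 13 members that passed through H211 only, whose difference the filter favoured. The difference between drug effects turned to 0.00102 for HIST3H2A without H82 control replicate 2 (range -0.164 to 0.00102 over single libraries) and to -0.0827 for HIST1H2AC without the 4 libraries. Without these, all genes called fell to 665 in H211, against 2868, and to 3038 differences, against 4956, with 1 H211 control left. HIST2H2BC in H82 passed in 28 of 28 alternatives, HIST2H2AC in 27 of 28, HIST1H3H in H211 in 26 of 27 and HIST2H2BE in H211 in 7 of 27. The causes were not tested. Depth is unknown, so levels near 1 carry an unknown counting error.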
